A study of Mus musculus with 2 samples.

Results

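The miR-26 family was measured by microRNA-seq in the heart of the mouse embryo. It comprises 3 of the 1973 miRNA genes in the deposited tables, Mir26a-1, Mir26a-2 and Mir26b, found by matching the Ensembl identifiers to GENCODE M21. The 2 libraries were made from total RNA of healthy B6NCrl hearts at embryonic day 16.5, pooled from male and female embryos, and the labels give a size range below 30 without a unit. They are labelled biological replicates of a single group, without any genotype or treatment contrast. Replicate 2 was pooled from 41 embryos, the pool size of replicate 1 is not given in the labels used here, and both pools carry the same donor identifier. All values are sense counts, that is reads on the strand of the miRNA gene, per 1000000 sense counts at all listed genes (CPM).

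A miRNA is cut from a hairpin precursor, which can release a mature strand from its 5′ arm (5p) and one from its 3′ arm (3p). Bases 2 to 8 of the mature strand, the seed, pair with target mRNAs. The miR-26 genes lie in introns of the Ctdsp genes, which encode small phosphatases that act on the C-terminal domain of RNA polymerase II and on the retinoblastoma protein. miR-26 is known to restrain Ezh2, a histone methyltransferase, and cyclins and cyclin-dependent kinases of the G1/S transition. In the cardiovascular system it has been studied in cardiac hypertrophy, through Gata4, and in angiogenesis, through Smad1.

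All 3 genes matched entries in RefSeq (GRCm38.p6, the same build as mm10). The mature sequences are shown with the seed in capitals because they set which reads can be assigned to which gene.
miR-26a-5p: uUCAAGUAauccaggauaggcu
miR-26b-5p: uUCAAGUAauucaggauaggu
miR-26a-1-3p: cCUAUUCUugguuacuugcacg
miR-26a-2-3p: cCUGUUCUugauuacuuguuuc
miR-26b-3p: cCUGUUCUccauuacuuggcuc

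The 5p strands of all 3 genes shared one seed, and no other gene of the RefSeq miRNA table had a mature strand with it. Mir26a-1 and Mir26a-2 encoded the same miR-26a-5p of 22 bases. Compared with it over 21 bases, miR-26b-5p of 21 bases carried 2 substitutions, C11U and C21U, where the miR-26a base comes first and positions count from 1 at the 5′ end. Both lie outside the seed. The 3p strands differed more. Those of Mir26a-1 and Mir26a-2 differed at 6 of 22 positions, one of them (A4G) within the seed. Those of Mir26a-2 and Mir26b differed at 4 positions and had the same seed.

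The hairpins are shown next with both mature strands in capitals.
Mir26a-1, chr9:119031796-119031885, plus strand: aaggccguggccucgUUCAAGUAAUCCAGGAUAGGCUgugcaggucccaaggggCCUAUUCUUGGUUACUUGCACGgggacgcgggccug
Mir26a-2, chr10:126995530-126995613, plus strand: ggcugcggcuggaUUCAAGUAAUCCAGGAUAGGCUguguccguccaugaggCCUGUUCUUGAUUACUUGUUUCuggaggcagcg
Mir26b, chr1:74394310-74394394, plus strand: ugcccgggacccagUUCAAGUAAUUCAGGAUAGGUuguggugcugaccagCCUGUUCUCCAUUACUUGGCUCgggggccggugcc

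Mir26a-1 and Mir26a-2 had 72.5% of aligned hairpin bases in common, against 68.5% for Mir26a-1 and Mir26b and 66.3% for Mir26a-2 and Mir26b. The difference that bears on the counts is the longest identical stretch. It ran for 25 bases between the 2 Mir26a hairpins, from the first base of miR-26a-5p to the third base past its end. Between Mir26b and Mir26a-1 it ran for 11 bases, and between Mir26b and Mir26a-2 for 10. A read of 18 to 25 bases that starts at the first base of miR-26a-5p therefore matches both Mir26a hairpins equally well. A read of 26 bases from that base matches only one of them, as does any read of 18 bases or more from the start of either 3p strand. Of the 2200 annotated miRNA loci searched, none other held miR-26a-5p, and only Mir26b held miR-26b-5p. Of the 20-base windows along each hairpin, 6 of 71 in Mir26a-1 and 6 of 65 in Mir26a-2 occurred in both, and 0 of 66 in Mir26b occurred in any other hairpin. The search covered annotated hairpins and transcripts and not the whole genome.

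**Figure D1:**
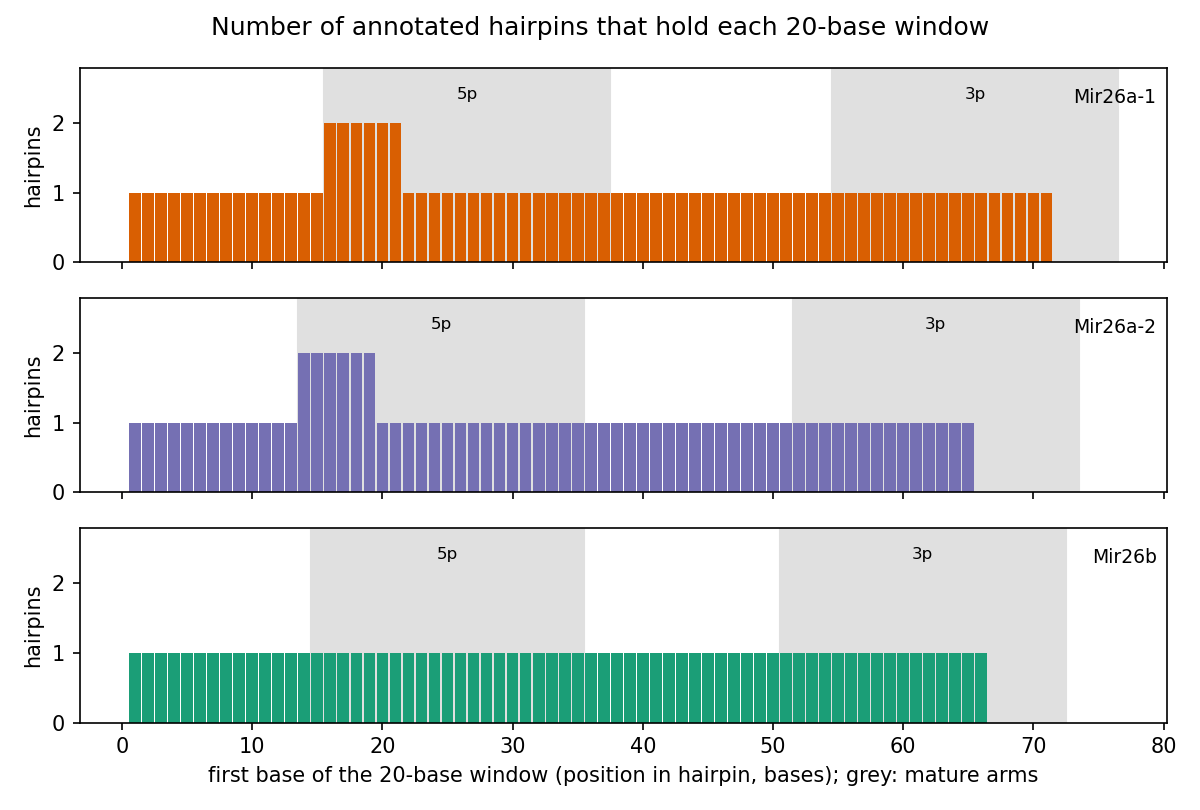
Number of annotated miRNA hairpins (y axis) that hold the 20-base window starting at each position of the hairpin in bases (x axis), for the 3 miR-26 genes; grey bands mark the mature 5p and 3p strands. The 6 windows held by 2 hairpins in each Mir26a gene all start within the 5p strand, and Mir26b has none.

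Each hairpin lay in an intron of its Ctdsp gene on the same strand, and overlapped no exon of a transcript that spans it and no gene of the other strand. Mir26b (ENSMUSG00000065468.1) lay in intron 4 of Ctdsp1 (ENSMUSG00000026176.13; chromosome 1, 74391509 to 74397285) in the principal transcript. This intron is short at 564 bases, and the hairpin lay 234 bases past the upstream exon and 245 before the next. Mir26a-2 (ENSMUSG00000065430.1) lay in intron 5 of Ctdsp2 (ENSMUSG00000078429.9; chromosome 10, 126978717 to 126999975), which is 1946 bases long. It stood 241 bases before the downstream exon. Mir26a-1 (ENSMUSG00000065513.1) lay in intron 5 of Ctdspl (ENSMUSG00000047409.13; chromosome 9, 118926453 to 119043998), which is 3283 bases long, 1543 bases past the upstream exon and 1650 before the next. The host mRNAs are not measured by this assay.

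Mir26b was one of the most abundant miRNA genes of the heart libraries. It had 202318 sense counts in replicate 1 and 201352 in replicate 2, or 31253 and 34469 CPM, a mean of 32861 ± 2274 CPM (SD, n = 2). It ranked ninth by mean level among the 365 detected genes, those that reached 10 counts in both libraries, and ninth in each library on its own. The counting interval (Wilson, 95%) was narrow, from 31120 to 31388 CPM in replicate 1 and from 34321 to 34617 CPM in replicate 2, and the intervals do not overlap. In bulk tissue, fewer cells of a type and less RNA per cell cannot be told apart.

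The Mir26a genes were detected at far lower levels. Mir26a-2 had 166 counts in replicate 1 and 205 in replicate 2, or 25.6 and 35.1 CPM, a mean of 30.4 ± 6.7 CPM (SD, n = 2). Mir26a-1 had 37 counts in each library, or 5.72 and 6.33 CPM, a mean of 6.02 ± 0.44 CPM (SD, n = 2). Its Wilson intervals, 4.15 to 7.88 and 4.60 to 8.73 CPM, lie well above the limit that a count of 0 allows, which is 0.463 and 0.514 CPM (3 counts). By mean level Mir26a-2 ranked 242nd and Mir26a-1 301st of the 365 detected genes. None of the 3 genes had a count on the opposite strand in either library, so counting reads of either strand left their counts as they were.

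Within each library the order of the genes was the same, Mir26b above Mir26a-2 above Mir26a-1, and the ranges over the libraries do not overlap. Mir26b exceeded Mir26a-2 1219-fold in replicate 1 (exact Clopper-Pearson 95% interval 1047 to 1428) and 982-fold in replicate 2 (857 to 1132), a log2 ratio of 10.10 ± 0.22 (SD, n = 2). Mir26b exceeded Mir26a-1 5468-fold (3967 to 7766) and 5442-fold (3948 to 7729), a log2 ratio of 12.41 ± 0.0049. Mir26a-2 exceeded Mir26a-1 4.49-fold (3.13 to 6.59) and 5.54-fold (3.89 to 8.09), a log2 ratio of 2.32 ± 0.22. Divided by hairpin length, the 3 log2 ratios were 10.08, 12.50 and 2.42. In all, the family held 3.29% ± 0.23 of sense counts, and the 2 Mir26a genes together held 0.110% ± 0.014 of the family's counts.

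**Figure D2:**
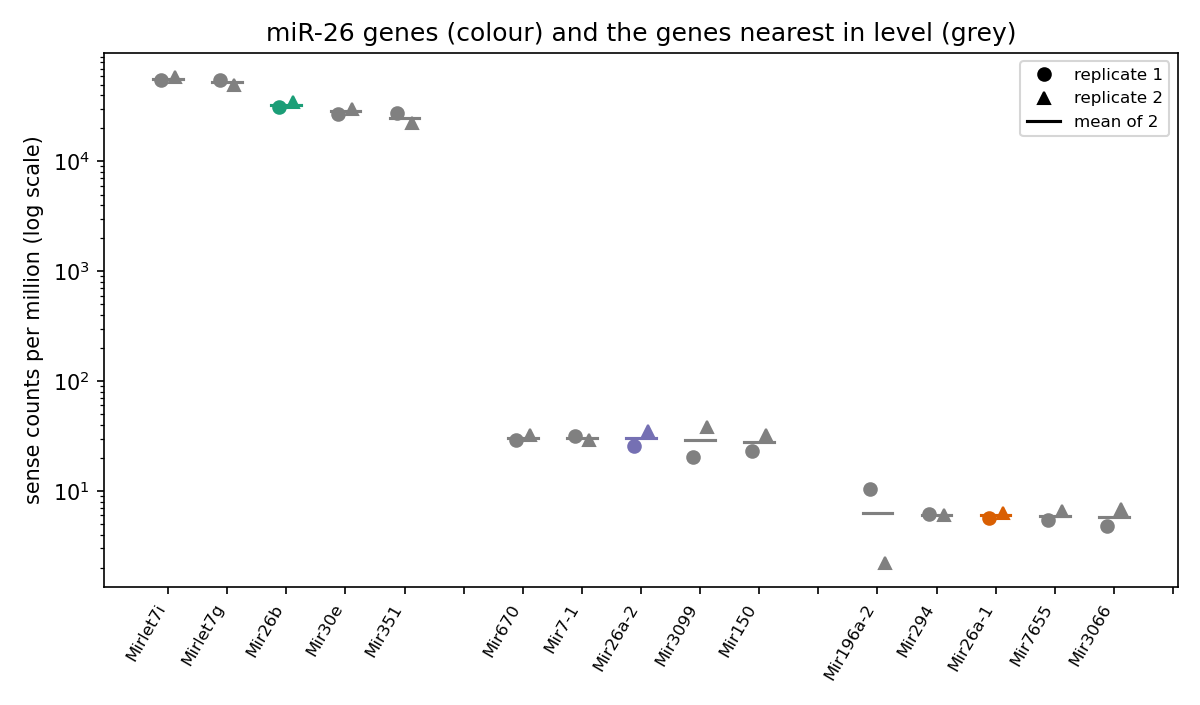
Sense CPM (y axis, log scale) of Mir26b, Mir26a-2 and Mir26a-1 in colour, each with the 2 genes next above and below it in mean level in grey; circles are replicate 1, triangles replicate 2 and bars the mean. The means are 32861 CPM for Mir26b, 30.4 CPM for Mir26a-2 and 6.02 CPM for Mir26a-1, and the 2 libraries lie close together for all 3.

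These ratios describe assigned reads and not the amounts of miR-26a and miR-26b. The tables list reads that match several places on a line of their own, outside every gene. That line held 4482590 reads in replicate 1 and 4105896 in replicate 2, or 29.5% and 31.9% of all reads, which is 22.2 and 20.4 reads for every Mir26b count. Reads of miR-26a-5p of up to 25 bases match 2 hairpins, while reads of miR-26b-5p match 1. How many of the reads on that line came from miR-26a-5p was not tested, and the gene totals do not tell 5p from 3p reads. The level of miR-26a-5p, and whether it lay above or below that of miR-26b-5p, is therefore not known from these counts.

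Other genes with a repeated mature strand were set beside the Mir26a genes. By the mature strands that RefSeq lists for them, 858 of the genes in the tables could be classed. In 54, including both Mir26a genes, one arm occurred at 2 or more annotated hairpins and the other at 1. Of these, 36 were detected, with a median of 48.2 CPM, and 4 had a mean of at least 1000 CPM. In 761, including Mir26b, no listed mature strand was repeated. Of these, 271 were detected, with a median of 131 CPM, and 69 had a mean of at least 1000 CPM. In the other 43, every listed strand was repeated. Of these, 6 were detected, with a median of 66.1 CPM, above that of genes with one repeated arm. The 54 genes together held 0.991% of sense counts, the 761 genes 82.1% and the 43 genes 0.0726%. The rest fell on genes that could not be classed, so these shares are not complete. Among those were Mir143, the most abundant gene at 96423 CPM, and Mir1a-1 and Mir133a-1, whose miRNAs are known to come from more than 1 locus. Both Mir26a genes thus lay below the median of detected genes in their class and Mir26b far above that of its own. RefSeq lists a single mature strand for 303 of the 858 genes, which can misplace a gene: Mirlet7a-2, listed with its 3p strand alone, was classed as unrepeated. Over genes with 2 listed strands, an alternative added after seeing the data, the medians were 48.2 CPM (one arm repeated, 36 detected genes), 158 CPM (none repeated, 222) and 87.7 CPM (every strand repeated, 3). No test was made between the classes.

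**Figure D3:**
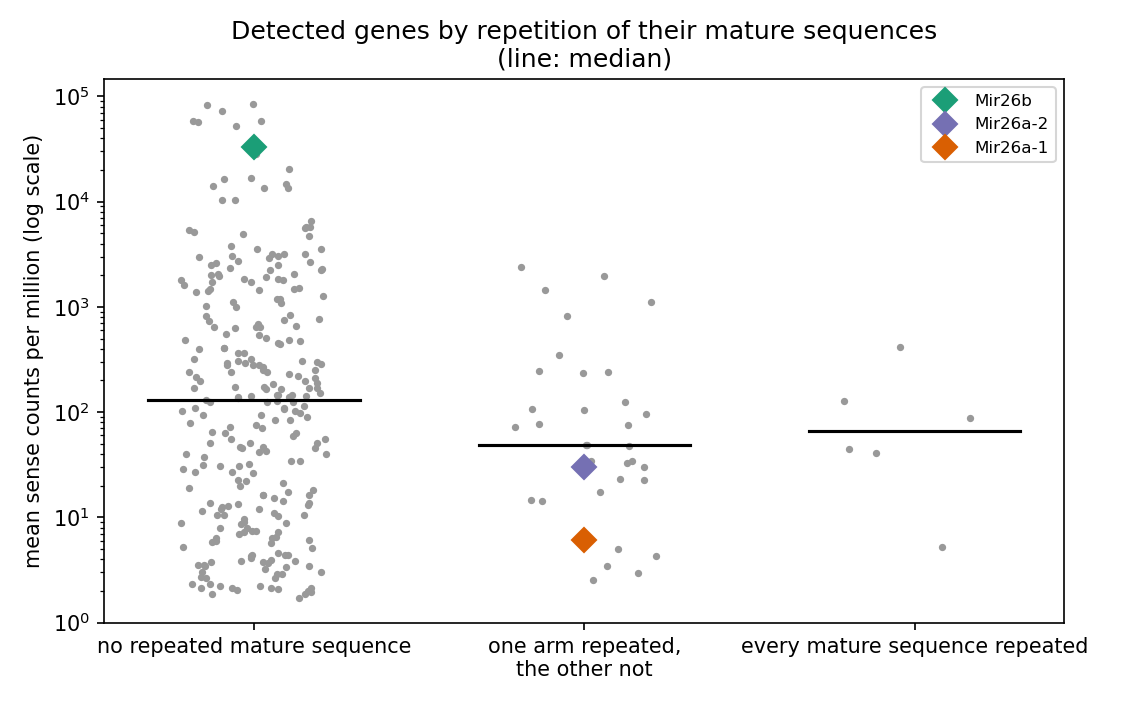
Mean sense CPM (y axis, log scale) of detected genes in 3 classes (x axis) by whether their mature strands occur at more than 1 annotated hairpin; grey points are genes, lines are class medians and coloured diamonds the miR-26 genes. Mir26a-1 and Mir26a-2 lie below the median of 48.2 CPM of genes with one repeated arm, and Mir26b lies above that of 131 CPM of genes with none; genes with every listed strand repeated have a median of 66.1 CPM.

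A list of 52 measured genes of miRNAs known to come from 2 or more loci, or from near-identical copies, held 1.15% of sense counts in replicate 1 and 1.23% in replicate 2. Of these, 39 were detected, 35 had a mean under 100 CPM, undetected ones included, and 5 a mean of at least 1000 CPM. Of all 1973 genes, 365 were detected and 82 had a mean of at least 1000 CPM. Among the 365 detected genes alone, 178 lay under 100 CPM, so such levels also occurred outside this list. That count leaves out undetected genes, unlike the 35 of the list. The highest were Mirlet7f-2 at 2418 ± 24.1 CPM, Mir92-1 at 1944 ± 26.7 CPM, Mir16-1 at 1452 ± 150 CPM and Mir101b at 1191 ± 27.0 CPM. The last has no repeated mature strand. Copies of one miRNA also differed in assigned counts elsewhere on this list. Mir16-1, of the Mir15a cluster, had 8713 and 9099 counts and Mir16-2, of the Mir15b cluster, 1408 and 1475.

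The genes nearest to each miR-26 gene in mean level were chosen by that level, so their closeness is a description. The genes next above Mir26b were Mirlet7i at 56944 ± 2111 CPM and Mirlet7g at 52420 ± 3280 CPM, both of the let-7 family, and those next below were Mir30e at 28556 ± 2035 CPM and Mir351 at 25049 ± 3432 CPM. The range of Mir26b over the 2 libraries did not overlap that of any of these 4 genes. Mir30e, intronic in Nfyc, lay nearest, with 27117 and 29995 CPM. For Mir26a-2 the nearest genes were Mir670, Mir7-1, Mir3099 and Mir150, from 27.8 to 30.6 CPM, and all 4 ranges overlapped its own. For Mir26a-1 they were Mir196a-2, Mir294, Mir7655 and Mir3066, from 5.82 to 6.29 CPM, again with overlap in all 4. Genes lie denser at these levels than at that of Mir26b, so the overlaps draw no contrast between the members.

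The spread between the pools was examined for each gene. An exact binomial test (two-sided, on raw counts given TMM-scaled library sizes) was used, with Benjamini-Hochberg adjustment over the 365 detected genes. A gene was called when its adjusted p fell below 0.05 and the pools differed 2-fold or more. None of the 3 miR-26 genes was called, against 3.29% of all detected genes (1.64% as higher and 1.64% as lower in replicate 2). Without the minimum fold Mir26b and Mir26a-2 passed, both higher in replicate 2, where 46.3% of all detected genes passed, 26.0% as higher and 20.3% as lower in replicate 2. The test compares these 2 libraries and rests on counting error alone.

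Mir26b was 1.12-fold higher in replicate 2 (exact 95% interval 1.12 to 1.13), a log2 ratio of 0.17 with an adjusted p of 2.6e-293 by the exact binomial test. At its depth this difference passed although 41.9% of detected genes had an absolute log2 ratio no larger and the median absolute log2 ratio of detected genes was 0.21. Mir26a-2 was 1.39-fold higher (exact 95% interval 1.13 to 1.72), a log2 ratio of 0.48 with an adjusted p of 0.0039 by the same exact test, and 77.5% of detected genes had an absolute log2 ratio no larger. Mir26a-1 had a log2 ratio of 0.17 with an adjusted p of 0.76 by the exact test. Its interval, from 0.70-fold to 1.83-fold, excludes a 2-fold difference in either direction but not one of the size seen for Mir26a-2.

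**Figure D4:**
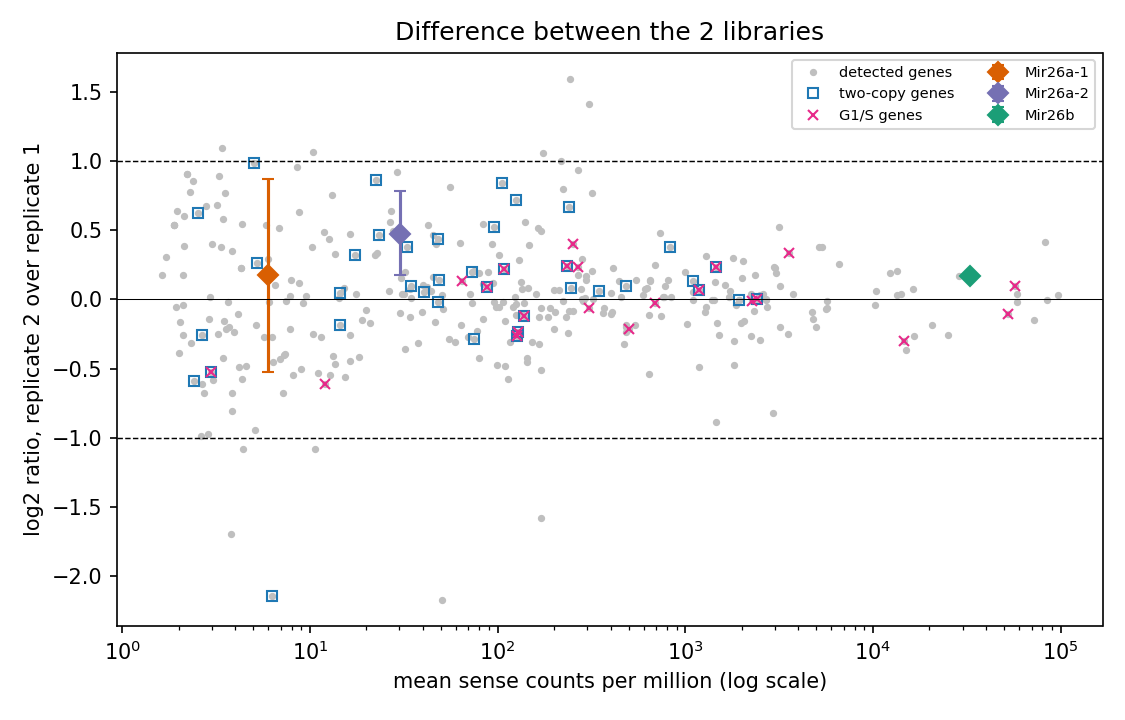
Log2 ratio of replicate 2 over replicate 1 (y axis) against mean sense CPM (x axis, log scale) for the 365 detected genes in grey, with the two-copy list, the G1/S list and the miR-26 genes marked; bars are exact 95% intervals of the miR-26 genes and dashed lines mark 2-fold. All 3 miR-26 genes lie between 0.17 and 0.48, inside the dashed lines.

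Among the 39 detected genes of the two-copy list, the median log2 ratio between the pools was 0.099, against 0.018 over all detected genes. At 2-fold 1 was called, Mir196a-2, which was lower in replicate 2 with 67 counts in replicate 1 and 13 in replicate 2. With no minimum fold, the exact binomial test passed 16 of them as higher and 4 as lower in replicate 2, and 19 failed it, where 26.0% and 20.3% of all detected genes passed as higher and lower. At 2-fold the share over all detected genes was 3.29%.

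Marker miRNAs of the tissue were compared between the pools as summed levels. The heart muscle miRNAs Mir208a, Mir208b, Mir499, Mir1a-1 and Mir133a-1, all 5 detected, summed to 67709 and 67124 CPM, endothelial Mir126a stood at 85876 and 84222 CPM, and smooth muscle Mir143 and Mir145a, both detected, summed to 97337 and 98086 CPM. Erythroid Mir144 and Mir451a, both detected, summed to 2037 and 1719 CPM and leukocyte Mir155 and Mir223, both detected, to 563 and 685 CPM. The erythroid and leukocyte sums thus shifted more than Mir26b did, in opposite directions. The sums are led by single genes, and Mir155 alone was 1.74-fold higher in replicate 2. The markers are few, and other genes of the same cell types differed from them. Endothelial Mir221 was 1.46-fold higher in replicate 2 (69.2 and 99.1 CPM). Erythroid Mir486 was 1.08-fold higher there (81.1 and 85.9 CPM) and did not pass the exact binomial test. Mir142, also planned as a leukocyte marker, was not matched by name. Mir208b, at 59090 and 57432 CPM, made up most of the heart muscle sum. Within the sums that changed little, Mir208a was 1.20-fold and Mir145a 1.24-fold higher in replicate 2, also more than Mir26b. Mir1a-1 (19 and 11 counts) and Mir133a-1 (19 and 14 counts) were lower there, but neither passed the exact binomial test (adjusted p 0.40 and 0.83). Both are on the two-copy list and had means of only 2.41 and 2.67 CPM. Liver Mir122 stood at 160 and 161 CPM. The neural Mir9-2 and Mir124a-1 had at most 1 count, but Mir9-2 has repeated mature strands, and its copy Mir9-3 had 16 counts in replicate 1 and 1 in replicate 2. Mir124a-1 is on the two-copy list as well. Reads that match several copies are counted in no gene, so these counts do not show that either miRNA was absent. The part of these differences in those of the miR-26 genes was not tested. The libraries held 6473482 and 5841568 sense counts and differed beyond sampling noise (chi-square of 164 per detected gene). Reads are not shown to be independent molecules, since no molecular identifier is named in the labels, so intervals and limits cover counting error only.

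Among other miRNA genes known to restrain G1/S regulators or Ezh2, the let-7 genes were the most abundant by assigned reads. The list held 23 measured genes, of which 22 were detected, with 14.0% of sense counts in replicate 1 and 13.6% in replicate 2. The let-7 family represses cell-cycle and growth genes. After Mirlet7i and Mirlet7g, the highest genes of the list, which leaves out the let-7 family member Mir98, were Mirlet7d at 14568 ± 2331 CPM and Mirlet7b at 3564 ± 535 CPM, so that only 2 genes of the list exceeded Mir26b by mean level. The list's median log2 ratio between the pools was -0.0028, against 0.018 over all detected genes, with 0 of 22 called at 2-fold, where 3.29% of all detected genes were called. Without the minimum fold, 8 were higher in replicate 2, 6 lower and 8 did not pass by the exact binomial test, which 46.3% of all detected genes passed. Passing depends on depth, and the list's 23 genes had a median of 268 CPM, against 108 CPM over all detected genes. Several of its genes, among them Mirlet7f-2, Mir16-1 and Mir16-2, also have a repeated arm, so their order by all reads is not known either.

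A list of 25 measured genes in introns of other hosts, 24 of them detected, had a median log2 ratio of 0.19, against 0.018 over all detected genes. At 2-fold 0 were called, against 3.29% of all detected genes. Without the minimum fold 14 were higher in replicate 2, 5 lower and 5 did not pass, where 26.0% of all detected genes passed as higher and 20.3% as lower. Passing depends on depth, and the 25 genes had a median of 690 CPM, against 108 CPM over all detected genes. These shares are therefore not alike. Mir26b, with 0.17, lay near that median, but the list ran from -0.31 to 0.84. Mir30e, the neighbour of Mir26b in level, also had 0.17, while Mirlet7g had -0.10 and Mir208b -0.016. A shift common to intronic genes was not tested. By mean level Mir26b lay below Mir335 (82574 ± 15687 CPM, in the imprinted gene Mest), Mir208b (58261 ± 1172 CPM, in the myosin gene Myh7) and Mirlet7g of this list. It lay above the other 22, of which Mir30e was the highest.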

How the data were processed

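Per the deposited file lists, reads were counted per miRNA gene on build mm10 with annotation M4. The aligner, counter and trimming are not given in the sources used here. The authors deposited raw counts, with 1 column for reads of either strand and 1 for each strand. The third column was taken as sense, since it holds most of the gene counts in each library. Lines that name no gene (unmapped 22.4% and 17.2%, several places 29.5% and 31.9%, outside genes 2.99% and 2.66% of 15207730 and 12885555 reads) stayed out of totals and tests.

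Identifiers without their version were matched to GENCODE M21 of the same build (1894 of 1973 genes, and all 365 detected), and sequences came from RefSeq. With a single group there was no contrast for edgeR's quasi-likelihood test. TMM scaling used edgeR 4.0.16 in R 4.3.3, and tests used scipy 1.17.1 in Python 3.11.15; log2 ratios had 0.5 added to each count. Besides the 3 members, the genes named were the 2 nearest above and below each in mean CPM. The 4 highest of the two-copy and G1/S lists were named as well. Mir16-2, Mirlet7a-2, Mir98, Mir9-3, Mir221, Mir486, the intronic genes, the marker genes and those with other names given below were named outside this rule. The members and lists were chosen with earlier results of these data known. Of the names on the lists, 6 two-copy, 5 G1/S and 3 intronic ones matched no row by name. Some are other names of measured genes. Mir195 and Mir28 are Mir195a and Mir28a, which were on their lists. Mir7a-1 and Mir7a-2 are Mir7-1 and Mir7-2, which were classed by sequence but left out of the two-copy list. Mature strands were searched in 2200 miRNA loci and 141767 transcripts. Alternatives were other denominators, scalings and filters, no minimum fold, either strand, other read lengths, genes with 2 listed mature strands and leaving out each replicate.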

Additional observations from a re-analysis of the deposited data

How the results depend on the processing

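The direction of each miR-26 difference between the pools held under total-count scaling, DESeq2 1.42.0 size factors, both other filters and either strand: log2 0.14 to 0.17 for Mir26b, 0.45 to 0.48 for Mir26a-2 and 0.15 to 0.18 for Mir26a-1, with the filter of 50 counts leaving out Mir26a-1. None was called there. Without the minimum fold Mir26b (0.17) and Mir26a-2 (0.48) passed. Called genes numbered 12, against 21 with any count in either library, 5 with 50 or more counts in each and 169 without the minimum fold. For the two-copy list these were 1, 3, 0 and 20, and without the minimum fold 14 of the G1/S list and 19 of the intronic list passed. Over all reads of the table, levels were 14465 for Mir26b, 13.4 for Mir26a-2 and 2.65 for Mir26a-1 per 1000000 reads and the family's share 1.45%. Without Mir143, the most abundant gene, Mir26b stood at 36368 and Mir26a-1 at 6.67 CPM and the share at 3.64%. Leaving out either library gave 31253 to 34469 CPM for Mir26b, 25.6 to 35.1 for Mir26a-2, 5.72 to 6.33 for Mir26a-1, a share of 3.13% to 3.45%, and log2 ratios of 9.94 to 10.25 (Mir26b over Mir26a-2), 12.41 to 12.42 (Mir26b over Mir26a-1) and 2.17 to 2.47 (Mir26a-2 over Mir26a-1). A read of 26 bases from the first base of miR-26a-5p, a length added after seeing the data, matched 1 hairpin, and reads of 18 to 25 bases matched 2. The planned search of the whole genome was not run, as no genome sequence was used here. No paired analysis was possible because there is a single group. The 37 counts of Mir26a-1 in each library limit its comparison to differences outside 0.70-fold to 1.83-fold.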
